A study of Homo sapiens with 10 samples.

Results

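The eukaryotic translation initiation factors are the proteins that bring the initiator tRNA, the mRNA and the ribosome together before the first peptide bond is made. Their mRNAs were followed here in RPE-1 cells treated with sulforaphane. Rows of the count table were taken where the gene symbol began with EIF1 to EIF6. The eIF2 kinases EIF2AK1 to EIF2AK4, EIF2S1 and symbols ending in P and a number were left out. Of 103 rows with such a symbol, 49 met this rule among 28380 genes in the table, 46 of them protein-coding and 3 noncoding. Of the 54 left out, 46 are pseudogenes in RefSeq and 8 code for proteins. Of those 8, EIF4EBP1 to EIF4EBP3 were lost only because their symbols end in P and a number. They are described with the partners of initiation.

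In translation initiation, eIF2 carries the initiator tRNA to the small ribosomal subunit, where eIF3, eIF1, eIF1A and eIF5 assemble with it. The mRNA arrives through the eIF4 factors: eIF4E binds the cap, eIF4A is an RNA helicase, and eIF4G is the scaffold that joins them to eIF3. When the scanning complex meets a start codon, eIF5 stimulates GTP hydrolysis by eIF2, eIF5B promotes joining of the large subunit, and eIF2B recharges eIF2 with GTP. Cells under stress slow this cycle mainly by phosphorylating the alpha subunit of eIF2 and by releasing proteins that hold eIF4E, and both of these act on protein rather than on mRNA levels.

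RPE-1 is a line of human retinal pigment epithelial cells made immortal with telomerase. All libraries were of this single line, 5 from cells given the vehicle DMSO and 5 from cells given 25 µM sulforaphane (SFN), an isothiocyanate from cruciferous vegetables, each for 4 h. The libraries read the 3′ ends of mRNAs, and their total counts ran from 15689294 to 20666692 in DMSO and from 12375860 to 17308706 in SFN. The labels do not say whether the replicates were separate cultures, and the methods speak of independent replicates in general without defining them for these libraries, so the p-values measure the spread between these libraries, which may be technical. Levels are given as CPM (counts per 1e6 counts of the library, after scaling by the trimmed mean of M values, TMM). They are shares of a library, so less mRNA of a gene per cell cannot be told apart from more of everything else, or from fewer cells that express it.

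DMSO replicate 1 stood apart from the other DMSO libraries. Its mean Spearman correlation with the other DMSO libraries was 0.935, against 0.979 to 0.991 for the other 9 libraries with their own group. Across all genes tested, 85.0% lay outside the range of DMSO replicates 2 to 5 in that library and 29.7% lay over 2-fold from their mean. The members are therefore described with and without it. The keratins KRT8 and KRT18 and the intermediate filament gene VIM, which cultured RPE cells also make, were expressed in every library, RPE65 and RLBP1 reached at most 3 and 4 counts, and BEST1, PMEL, MITF and OTX2 also passed the low-count filter, so 7 of the 10 markers listed for the line were tested. MITF and OTX2 were lower in SFN in both fits, and BEST1 (1.68, adjusted p = 0.00961) and KRT8 (0.37, adjusted p = 0.0162) were higher only without DMSO replicate 1. The last exon of BEST1 overlaps the ferritin gene FTH1 on the opposite strand. The use of strand in counting is not known, so reads given to BEST1 may be those of FTH1. Of the markers of other cell types, PTPRC, PECAM1 and EPCAM reached at most 6, 9 and 2 counts. TYR, CD3E, ALB and HBB were not analysed here. Of 10 genes of the response to SFN, 6 were higher (HMOX1, GCLM, HSPA1A, DDIT4, SESN2 and ATF4) and 1 was lower (TXNIP), and without DMSO replicate 1 NQO1 and TXNRD1 were also higher, which made 8.

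After 4 h of SFN, 3 of the 46 coding initiation factors were higher and 1 was lower at an adjusted p under 0.05 by edgeR's quasi-likelihood test. The 3 were EIF1 and EIF1B, which guard the choice of start codon, and EIF5A, which helps ribosomes through difficult stretches of coding sequence. The 1 was EIF4A2, a helicase paralog. That is 8.70% of the members, against 23.0% called in either direction among all 13378 genes tested (9.07% higher and 13.9% lower). With library sizes alone in place of TMM, the calls over all genes moved from 1214 higher and 1862 lower to 819 and 2163. The members' median log2 fold change was 0.13, with a range from -0.43 to 0.86, and 29 of 46 were above 0. The median over all genes tested was -0.028. No member reached a 2-fold change. At an unadjusted p under 0.05, 9 members were higher and 4 lower, and 34.6% of all genes passed that limit.

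Without DMSO replicate 1, 19 of the 46 members were higher and 4 were lower, which is 50.0% called, against 46.1% of the 13566 genes then tested (22.5% higher and 23.5% lower). The median of the members was then 0.22, beside -0.0032 for all genes, and 4 members (EIF1, EIF1B, EIF5 and EIF2S2) passed a 2-fold change. Every SFN library lay above every DMSO library for 1 member (EIF5A) and below for 1 (EIF4A2), where 8.78% and 11.1% of all genes did so. These counts were 14 and 3 without DMSO replicate 1, against 16.6% and 19.5% of all genes. Leaving out any of the other 9 libraries gave 1 to 4 higher calls and 1 lower call, with 1 higher call (EIF1) without DMSO replicate 3 and without SFN replicate 3.

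**Figure D1:**
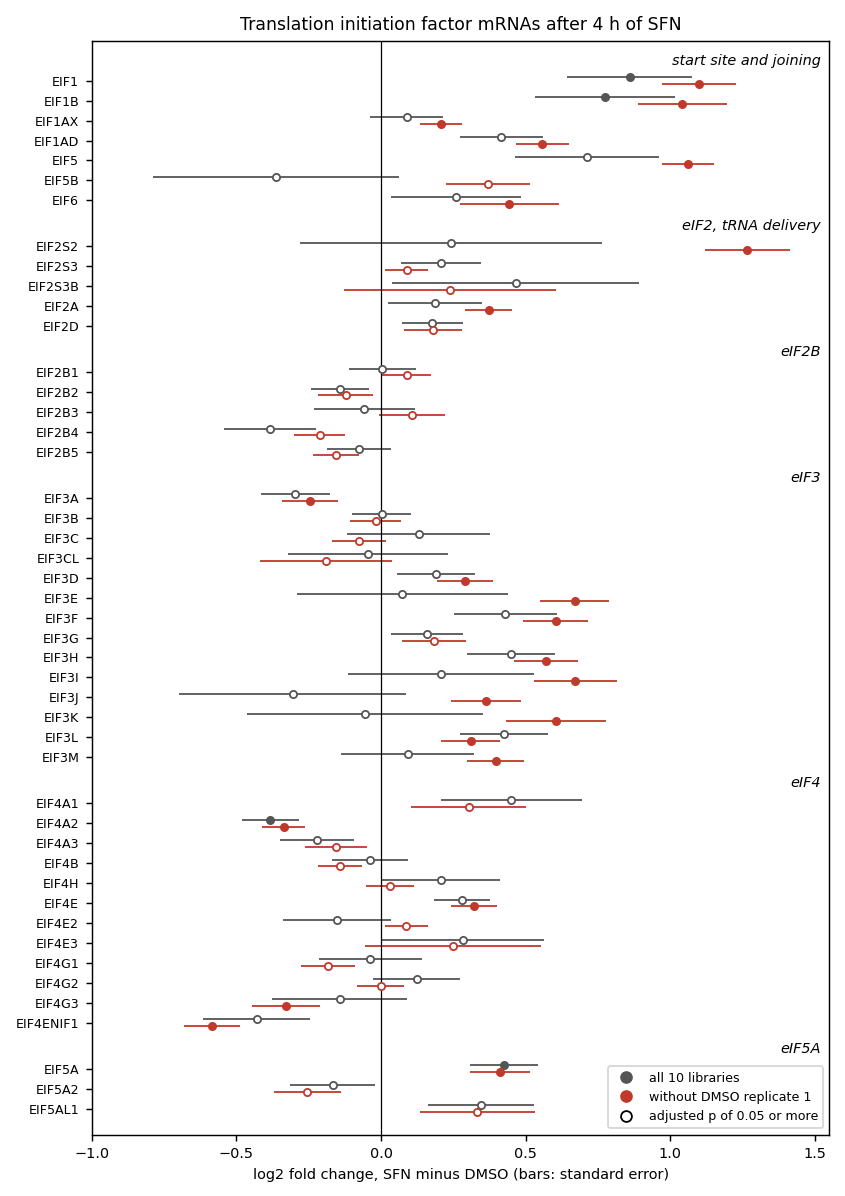
Log2 fold change (SFN minus DMSO, x axis) of the 46 coding initiation factors, grouped by role, with all 10 libraries (grey) and without DMSO replicate 1 (red). Bars are standard errors and filled points passed an adjusted p of 0.05. With all libraries 4 points are filled, and without DMSO replicate 1 there are 23. Of these, 6 are among the 7 factors of start site selection and subunit joining and 10 among the 14 genes of eIF3. Over all genes tested, 23.0% were called with all libraries and 46.1% without DMSO replicate 1.

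The factors of start site selection held 2 of the 3 higher calls. EIF1 (ENSG00000173812, chromosome 17, 41688885 to 41692668, GRCh38) encodes eIF1, which keeps the scanning ribosome open until a proper start codon is found. EIF1 stood at 272, 139, 147, 130.1 and 147 CPM in DMSO replicates 1 to 5 and at 298, 407, 293, 283 and 237 CPM in SFN replicates 1 to 5. The SFN libraries were all above DMSO replicates 2 to 5, while DMSO replicate 1 lay within the SFN range. EIF1 rose from 167 ± 59.2 to 304 ± 62.4 CPM (mean ± SD, n = 5 each), a log2 fold change of 0.86 (SE 0.22, adjusted p = 0.0136, edgeR's quasi-likelihood test). With DMSO replicate 1 left out the change was 1.10 (SE 0.13, adjusted p = 1.22e-05). The call held under all 17 alternatives, with an adjusted p from 1.02e-09 to 0.0390. Reads of the copy EIF1P6 were 10 in DMSO replicate 1, 0 in DMSO replicates 2 to 5 and 8 to 15 in SFN, at most 0.357% of those of EIF1.

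EIF1B (ENSG00000114784, chromosome 3, 40309707 to 40312424) encodes a close paralog of eIF1. The coding sequences, of 339 bases each, are 82.0% identical, whereas the last 300 bases of the canonical transcripts, from which 3′ reads come, are 47.5% identical. The last exon of EIF1B overlaps another locus, ENSG00000291315, on the same strand, so the assignment of reads there is uncertain. EIF1B stood at 37.7, 16.7, 17.1, 18.0 and 21.8 CPM in DMSO replicates 1 to 5 and at 38.9, 52.0, 37.7, 33.0 and 28.5 CPM in SFN replicates 1 to 5. As for EIF1, DMSO replicate 1 was inside the SFN range and SFN replicate 2 was the highest. EIF1B rose by 0.77 on the log2 scale (SE 0.24, adjusted p = 0.0387, edgeR), and by 1.04 without DMSO replicate 1 (adjusted p = 1.12e-04). The call was lost on leaving out any of the other 4 DMSO libraries or any of SFN replicates 1 to 4, with an adjusted p from 0.0514 to 0.0934 and a log2 fold change from 0.64 to 0.82.

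EIF5 encodes the GTPase-activating protein of eIF2 and lies at chromosome 14, 103333544 to 103345025. EIF5 stood at 986, 419.9, 418, 399 and 409 CPM in DMSO replicates 1 to 5 and at 898, 1007, 855, 787 and 765 CPM in SFN replicates 1 to 5. DMSO replicates 2 to 5 lay within a narrow band below every SFN library, and DMSO replicate 1 lay above 4 of the 5 SFN libraries. The log2 fold change was 0.71 (SE 0.25, adjusted p = 0.0598), which did not pass, and 1.06 without DMSO replicate 1 (SE 0.089, adjusted p = 7.00e-07, edgeR). DESeq2, library sizes alone, limma-voom on quantile normalized values and no low-count filter each put it past the threshold with all 10 libraries, with an adjusted p from 0.0111 to 0.0371. The values of EIF5 in each library, and those of EIF2S2 further on, are shown because they were seen to turn on DMSO replicate 1.

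Among the other start site factors, EIF1AD, a protein related to eIF1A, had a log2 fold change of 0.42 (adjusted p = 0.0577), which became 0.56 without DMSO replicate 1 (adjusted p = 2.41e-04, edgeR). EIF1AX encodes the X-linked form of eIF1A, which works beside eIF1 on the small subunit. Its change was 0.089 (adjusted p = 0.680) and 0.21 without that library (adjusted p = 0.0282), and it was at -0.0042 under limma-voom with quantile normalization. EIF6, which keeps the large subunit from joining too early, was at 0.26 (adjusted p = 0.468) and higher by 0.44 (adjusted p = 0.0481) without DMSO replicate 1. For EIF5B, the GTPase of subunit joining, the values with and without that library had opposite signs. EIF5B was at 2271 CPM in DMSO replicate 1, between 477 and 565 CPM in DMSO replicates 2 to 5 and between 489.9 and 925 CPM in SFN. Its log2 fold change was -0.36 (adjusted p = 0.601) with all libraries and 0.37 (adjusted p = 0.0502) without that one.

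**Figure D2:**
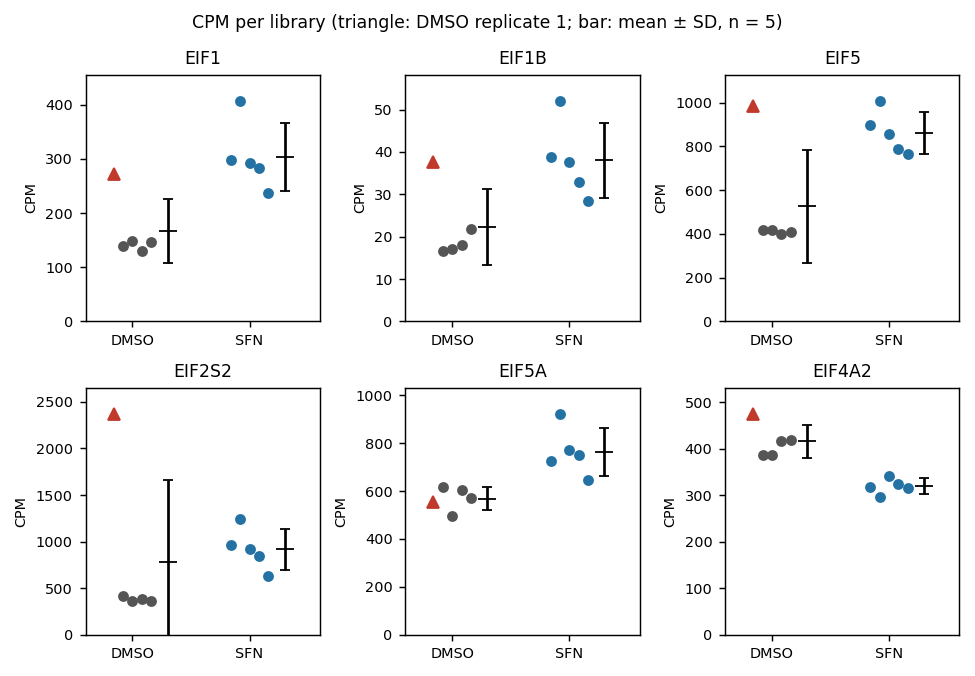
CPM (linear y axis from 0) in each DMSO and SFN library for 6 initiation factors, with DMSO replicate 1 as a triangle and the mean ± SD of all 5 libraries of a group as a bar, whose lower end for EIF2S2 in DMSO is below 0 and not drawn. The triangle lies inside or above the SFN points for EIF1, EIF1B, EIF5 and EIF2S2, with DMSO replicates 2 to 5 below them, whereas the groups do not overlap for EIF5A and EIF4A2.

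The sequences before the starts of EIF1, EIF1B and EIF5 are shown because these 3 genes had the largest positive changes with all 10 libraries. They are from RefSeq (GRCh38.p14), plus strand, 5′ to 3′. The windows are chr17:41688635-41688884 for EIF1 and chr3:40309457-40309706 for EIF1B, each of 250 bases up to the base before the start. The EIF5 window, chr14:103333987-103334188, covers positions -250 to -49 (202 bases) before a RefSeq transcript start and stops there because annotated exons begin further on. It lies inside the interval given above for EIF5, which in GENCODE begins at an earlier transcript. Another RefSeq window of EIF5 is not shown, and it holds the EGR1 site GCGNGGGCG at position -29 and a further TGACNNNGC at position -228. In the sequence printed for EIF5, capitals mark the match to TGACNNNGC, the core of the antioxidant response element bound by NRF2, at position -125.
EIF1: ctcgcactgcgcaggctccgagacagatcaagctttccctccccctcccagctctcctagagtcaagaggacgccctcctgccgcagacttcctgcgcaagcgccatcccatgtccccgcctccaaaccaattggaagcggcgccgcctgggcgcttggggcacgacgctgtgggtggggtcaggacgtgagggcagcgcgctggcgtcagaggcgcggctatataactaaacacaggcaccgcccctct
EIF1B: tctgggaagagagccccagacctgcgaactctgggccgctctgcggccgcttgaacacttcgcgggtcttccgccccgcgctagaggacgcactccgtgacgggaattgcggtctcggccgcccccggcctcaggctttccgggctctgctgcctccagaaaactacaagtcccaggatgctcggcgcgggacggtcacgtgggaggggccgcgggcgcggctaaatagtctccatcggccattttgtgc
EIF5: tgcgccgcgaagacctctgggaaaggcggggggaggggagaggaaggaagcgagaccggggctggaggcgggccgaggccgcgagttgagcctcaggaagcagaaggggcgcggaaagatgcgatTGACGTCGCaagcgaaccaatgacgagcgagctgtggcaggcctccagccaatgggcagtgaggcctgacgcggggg
Neither EIF1 nor EIF1B held any of the 5 motifs searched on both strands of the 250 bases before a start. TGACNNNGC was found for 8 of the 39 coding members with a RefSeq promoter entry (EIF1AX, EIF2A, EIF3J, EIF4G1, EIF4G3, EIF5, EIF5A and EIF5A2), or 20.5%, beside 13.2% of all 27305 genes with an entry. The EGR1 site GCGNGGGCG was found for 4 members, or 10.3% (EIF2B2, EIF4E3, EIF5 and EIF5A), beside 10.1% of all genes. The heat shock element core GAANNTTC was found for 1 member, EIF4A2, or 2.56% against 7.05%. The ATF4 composite site TGATGNAAN was found for 1, EIF4E3, or 2.56% against 3.87%, and the cyclic AMP response element TGACGTCA for 0 against 2.03% of all genes. TGACNNNGC and TGACGTCA share their first 4 letters. The site marked for EIF5, TGACGTCGC, begins with TGACGTC as TGACGTCA does, so it does not single out the antioxidant response element. A match is only a run of letters.

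Of the 5 members that belong to eIF2 or deliver tRNA, 0 passed edgeR's test with all libraries, 0 had an unadjusted p under 0.05 and DESeq2 called 0. EIF2S2 encodes the beta subunit of eIF2, the docking site of eIF5 and eIF2B, and lies at chromosome 20, 34088309 to 34112243. EIF2S2 stood at 2367, 412, 364, 387 and 360.4 CPM in DMSO replicates 1 to 5 and at 960.3, 1241, 918, 843 and 635 CPM in SFN replicates 1 to 5. DMSO replicate 1 was 6.22 times the mean of the other 4 and above every SFN library, whereas the other 4 were below every SFN library. The log2 fold change was 0.24 (SE 0.52, adjusted p = 0.794) with all libraries and 1.27 (SE 0.15, adjusted p = 1.27e-05, edgeR) without that one, the highest of any member in that fit. Reads of the processed copy EIF2S2P4 amounted to 0.691 to 1.10% of those of EIF2S2.

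EIF2S3, the tRNA-binding gamma subunit, was at 0.21 (adjusted p = 0.328) and at 0.089 (adjusted p = 0.340) without DMSO replicate 1. Its retrogene EIF2S3B, with 98.2% of its coding sequence shared, had only 4 to 31 counts in a library and a log2 fold change of 0.47 (adjusted p = 0.493), or 0.24 (adjusted p = 0.620) without that library. EIF2A and EIF2D, which can place tRNA on the ribosome without eIF2, were at 0.19 (adjusted p = 0.471) and 0.18 (adjusted p = 0.267). Without DMSO replicate 1 EIF2A was higher by 0.37 (adjusted p = 0.00221, edgeR) and EIF2D was at 0.18 (adjusted p = 0.155). The alpha subunit EIF2S1, outside the rule, was at 0.11 (adjusted p = 0.557) with all libraries and at 0.19 (adjusted p = 0.0414) without that one.

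None of the 5 subunits of eIF2B, the exchange factor that phosphorylated eIF2 blocks, passed edgeR's test with or without DMSO replicate 1, although EIF2B4 had an unadjusted p of 0.0338. The log2 fold changes were 0.0049 for EIF2B1, -0.14 for EIF2B2, -0.057 for EIF2B3, -0.38 for EIF2B4 and -0.076 for EIF2B5, with adjusted p-values from 0.109 to 0.984. Without that library they ran from -0.21 for EIF2B4 to 0.11 for EIF2B3, with adjusted p-values from 0.0638 to 0.472. DMSO replicate 1 was above all SFN libraries for 4 of these genes. DESeq2 called 0 of the 5 with all 10 libraries, whereas library sizes alone put EIF2B4 past the threshold (adjusted p = 0.0225), and sample quality weights did so for EIF2B4 (0.00692) and EIF2B5 (0.0452), each lower.

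**Figure D3:**
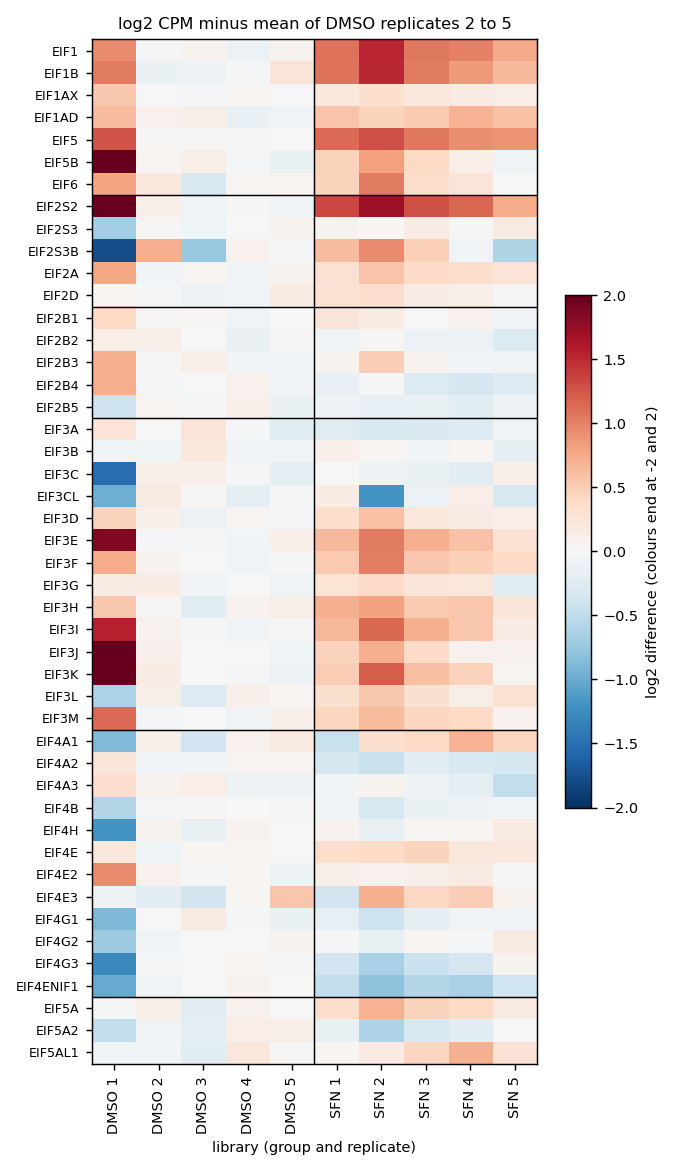
Log2 CPM of the 46 coding members (rows, grouped by role as in the plot of fold changes) in each library (columns), as the difference from the mean of DMSO replicates 2 to 5, with colours ending at -2 and 2. The DMSO replicate 1 column is the most coloured, red for most of eIF3 and the start site factors and blue for EIF4H, EIF4G1, EIF4G3 and EIF3C, and SFN replicate 2 is often the most coloured among the SFN columns.

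The 14 genes of eIF3, the largest initiation factor and the platform on which the others assemble, gave 0 calls with all libraries (4 at an unadjusted p under 0.05, and 2 calls by DESeq2, EIF3H and EIF3L). The same test gave 9 higher and 1 lower without DMSO replicate 1, which is 71.4% called beside 46.1% of all genes in that fit. The 9 were EIF3I (0.67), EIF3E (0.67), EIF3K (0.61), EIF3F (0.60), EIF3H (0.57), EIF3M (0.40), EIF3J (0.36), EIF3L (0.31) and EIF3D (0.29), as log2 fold changes with adjusted p-values from 5.28e-04 to 0.0251. With all 10 libraries their values, in the same order, were 0.21, 0.074, -0.055, 0.43, 0.45, 0.092, -0.31, 0.42 and 0.19, with adjusted p-values from 0.0537 to 0.945. EIF3J, a loosely bound subunit at the decoding centre, and EIF3K thus had opposite signs in the 2 fits.

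EIF3E encodes a subunit that can contact eIF4G. EIF3E was at 809 CPM in DMSO replicate 1, at 217 to 244 CPM in DMSO replicates 2 to 5 and at 275 to 462 CPM in SFN. EIF3I, a subunit of the module around EIF3A and EIF3B, was at 432 CPM, 141 to 155 CPM and 165 to 326 CPM in the same 3 sets. EIF3K was at 189.9 CPM, 44.04 to 53.1 CPM and 49.8 to 111 CPM. For all 3 genes DMSO replicate 1 was above every SFN library, and for EIF3E and EIF3I every other DMSO library was below every SFN library. EIF3H and EIF3F, a pair of subunits with related domains, overlapped the SFN range only through DMSO replicate 1, at 213 CPM against 126 to 158 CPM for EIF3H and at 166 CPM against 95.9 to 104 CPM for EIF3F. EIF3L was the exception among the 9, since DMSO replicate 1, at 56.9 CPM, was below the other DMSO libraries (73.3 to 96.7 CPM) and its change was larger with that library in. The last exon of EIF3L overlaps another locus on the same strand.

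The 1 lower subunit was EIF3A, which forms the core with EIF3C and at which the values were -0.30 (adjusted p = 0.103) and -0.24 without DMSO replicate 1 (adjusted p = 0.0499, edgeR). EIF3A ranged from 1345 to 1869.8 CPM in DMSO and from 1251 to 1468 CPM in SFN, and the groups overlapped through SFN replicate 5 and DMSO replicate 5. The 4 eIF3 genes with no call in either fit were EIF3B (0.0025, adjusted p = 0.990), EIF3G (0.16, adjusted p = 0.412), EIF3C (0.13, adjusted p = 0.761) and EIF3CL (-0.045, adjusted p = 0.933). Without DMSO replicate 1 they were at -0.019, 0.18, -0.076 and -0.19. EIF3CL is a copy of EIF3C on chromosome 16 with 99.9% of the coding sequence in common, and the last 300 bases of both transcripts are 100% identical, so the split of reads between the 2 genes is uncertain. EIF3CL had 3.81 to 11.9% as many counts as EIF3C.

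Of the 12 members of the eIF4 group, which handles the cap and unwinds the mRNA, 1 fell with all libraries. EIF4A2 (ENSG00000156976, chromosome 3, 186783205 to 186789897) encodes a helicase close to eIF4A1. EIF4A2 stood at 474, 387, 386, 416 and 418 CPM in DMSO replicates 1 to 5 and at 318, 296, 342, 325 and 316 CPM in SFN replicates 1 to 5. Every SFN library was below every DMSO library, with or without DMSO replicate 1. EIF4A2 fell from 416 ± 35.8 to 319.5 ± 16.8 CPM (mean ± SD, n = 5 each), a log2 fold change of -0.38 (SE 0.10, adjusted p = 0.0148, edgeR). It was -0.34 without DMSO replicate 1 (adjusted p = 0.00232). The call was lost without the low-count filter (adjusted p = 0.0637).

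The paralog EIF4A1, the main helicase of eIF4F in most cells, stood at 3.43, 6.83, 4.86, 6.75 and 7.22 CPM in DMSO replicates 1 to 5 and at 4.65, 8.02, 8.34, 10.3 and 8.54 CPM in SFN replicates 1 to 5. These are 55 to 153 counts in a library, and the last exon of EIF4A1 overlaps the readthrough gene SENP3-EIF4A1 on the same strand, where the assignment of reads is uncertain. Its log2 fold change was 0.45 (SE 0.24, adjusted p = 0.221). EIF4A3, the helicase of the exon junction complex, was at -0.22 (adjusted p = 0.253). EIF4B and EIF4H stimulate eIF4A. EIF4B was at -0.037 (adjusted p = 0.878) and EIF4H at 0.21 (adjusted p = 0.531), and none of these 4 passed without DMSO replicate 1, at 0.30 for EIF4A1, -0.16 for EIF4A3, -0.14 for EIF4B and 0.029 for EIF4H.

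EIF4E encodes the cap-binding protein. EIF4E stood at 188, 153, 166, 168 and 160.1 CPM in DMSO replicates 1 to 5 and at 205, 212, 219.9, 189 and 187 CPM in SFN replicates 1 to 5. Only DMSO replicate 1 and the lowest SFN library overlapped, by less than 1 CPM. The log2 fold change was 0.28 (SE 0.10, adjusted p = 0.0578) and 0.32 without DMSO replicate 1 (adjusted p = 0.00456, edgeR). EIF4E2, whose product binds the cap but not eIF4G, stood at 177, 97.8, 90.4, 94.2 and 85.8 CPM in DMSO and 100.1, 97.7, 99.0, 103 and 90.7 CPM in SFN. Apart from DMSO replicate 1 its libraries overlapped, and the change was -0.15 (adjusted p = 0.623), or 0.088 without that library (adjusted p = 0.361). EIF4E3 stood at 0.934, 0.866, 0.783, 1.02 and 1.48 CPM in DMSO and 0.775, 1.64, 1.34, 1.42 and 1.06 CPM in SFN, 13 to 25 counts in a library, with a log2 fold change of 0.28 (adjusted p = 0.525), or 0.25 without DMSO replicate 1 (adjusted p = 0.528). EIF4ENIF1, which carries eIF4E into the nucleus and represses mRNAs, had the most negative log2 fold change of any member, -0.43 (SE 0.19, adjusted p = 0.121). It was at 20.6 CPM in DMSO replicate 1, below every SFN library (23.5 to 31.3 CPM), and at 39.3 to 43.3 CPM in the other 4, above them all. It was lower without DMSO replicate 1, at -0.59 (adjusted p = 2.68e-04).

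The scaffold genes shared a low DMSO replicate 1. EIF4G1 stood at 638, 1184, 1354, 1163 and 1095 CPM in DMSO replicates 1 to 5 and at 1066, 895, 1043, 1139 and 1152 CPM in SFN replicates 1 to 5. EIF4G2, whose product lacks the eIF4E site and drives cap-independent initiation, stood at 577, 918, 946, 953 and 1004 CPM in DMSO and 931, 861, 987, 932 and 1076 CPM in SFN. EIF4G3 stood at 95.3, 230.2, 233, 241 and 229 CPM in DMSO and 179, 148, 174, 185 and 246 CPM in SFN. The changes were -0.037 for EIF4G1 (adjusted p = 0.913), 0.12 for EIF4G2 (adjusted p = 0.621) and -0.14 for EIF4G3 (adjusted p = 0.719). Without DMSO replicate 1, EIF4G3 was lower, at -0.33 (adjusted p = 0.0338, edgeR), while EIF4G1 was at -0.18 (adjusted p = 0.125) and EIF4G2 at -0.0015 (adjusted p = 0.990). SFN replicate 5 was above DMSO replicates 2 to 5 for EIF4G3 while the other 4 SFN libraries were below them.

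EIF5A (ENSG00000132507, chromosome 17, 7306999 to 7312463) encodes the factor that carries hypusine, an amino acid made from spermidine, and it was the member least touched by DMSO replicate 1 among those called. EIF5A stood at 555, 618, 494, 603 and 571 CPM in DMSO replicates 1 to 5 and at 727, 920.3, 773, 749 and 645 CPM in SFN replicates 1 to 5. Every SFN library was above every DMSO library, and DMSO replicate 1 lay within the range of the others. EIF5A rose from 568 ± 48.5 to 763 ± 100.4 CPM (mean ± SD, n = 5 each), a log2 fold change of 0.42 (SE 0.12, adjusted p = 0.0230, edgeR), and 0.41 without that library (adjusted p = 0.00511). The call was lost with library sizes alone, quantile normalization and no low-count filter (adjusted p from 0.0761 to 0.126), and without DMSO replicate 3 (log2 fold change 0.38, adjusted p = 0.0600) or SFN replicate 3 (0.42, adjusted p = 0.0552). EIF5A2, a paralog with 71.4% of the coding bases in common, stood at 38.6, 51.5, 48.0, 59.2 and 58.5 CPM in DMSO and 48.7, 35.4, 43.4, 46.7 and 53.7 CPM in SFN. Its groups overlapped, with a log2 fold change of -0.17 (adjusted p = 0.475), or -0.26 without DMSO replicate 1 (adjusted p = 0.0873). The retrogene EIF5AL1, with 30 to 56 counts in a library, was at 0.35 (adjusted p = 0.211) and 0.33 (adjusted p = 0.186).

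The 3 noncoding rows gave no call in either fit. EIF3J-DT, a transcript divergent from EIF3J, had a log2 fold change of -0.33 (adjusted p = 0.297), and EIF2AK3-DT, divergent from the kinase gene EIF2AK3, one of 0.66 (adjusted p = 0.105) at 9 to 29 counts. EIF1B-AS1, antisense to the region of EIF1B, had 1 to 8 counts and was not tested. The use of strand in counting is not given in the sources used here, and the last exons of EIF5B, EIF2B1, EIF2B2, EIF3A, EIF3G, EIF3J and EIF3M overlap genes on the opposite strand, whose reads could then not be told apart from theirs. The same holds for PAIP2, PDCD4, EEF2K and DHPS, which are described below.

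The other genes of the initiation pathway were drawn from a list of 32 partners, of which 31 were tested and EIF4EBP3, with at most 6 counts, was not. Of these 6 rose and 0 fell with all libraries by edgeR (7 and 0 by DESeq2). That is 19.4% called, all of them higher, beside 23.0% of all genes (9.07% higher and 13.9% lower). At an unadjusted p under 0.05 in edgeR's test, 7 partners were higher and 1 was lower. The kinase of the unfolded protein response, EIF2AK3, rose by 1.33 on the log2 scale (adjusted p = 3.43e-04), from 15.0 to 31.5 CPM over the DMSO libraries to 53.8 to 76.5 CPM over the SFN libraries. PPP1R15A and PPP1R15B, which bring phosphatase to eIF2, rose by 1.90 (adjusted p = 8.52e-07) and 0.91 (adjusted p = 4.42e-04). PAIP2, which holds the poly(A)-binding protein away, rose by 0.72 (adjusted p = 0.00540). PDCD4, an inhibitor of eIF4A, rose by 0.72 (adjusted p = 1.29e-04), and BZW1, a mimic of eIF5, by 0.41 (adjusted p = 0.0145). The call of BZW1 was lost with library sizes alone, quantile normalization and no low-count filter (adjusted p from 0.0829 to 0.272). Every SFN library lay above every DMSO library for 7 of the 31 partners tested, where 8.78% of all genes did so. The 7 were these 6 genes, which had been picked by their calls, and NCBP2, which was not called (adjusted p = 0.0829, edgeR). All 6 passed without DMSO replicate 1, from 0.35 for BZW1 to 1.87 for PPP1R15A. EIF4EBP1, which binds eIF4E when mTORC1 is inactive, was at 0.39 (adjusted p = 0.452), and higher by 0.85 without DMSO replicate 1 (adjusted p = 0.00103), and EIF4EBP2 was at 0.24 (adjusted p = 0.332). Without that library 12 partners were higher and 5 lower, or 54.8%, beside 46.1% of all genes (22.5% higher and 23.5% lower). The 5 were DDX3X (-0.60), MKNK2 (-0.52), GCN1 (-0.43), RPS6KB1 (-0.31) and LARP1 (-0.23).

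Of 18 genes of elongation, termination and hypusine formation, EEF1G was not analysed here, EEF1A2 had at most 3 counts and 16 were tested, with 1 higher and 2 lower (18.8% called beside 23.0% of all genes). The 1 that rose was DHPS, which makes the first step of hypusine on eIF5A, by 0.58 (SE 0.16, adjusted p = 0.0229, edgeR). DHPS was at 4.46 to 6.20 CPM in DMSO and 6.30 to 9.74 CPM in SFN, or 73 to 138 counts in a library. Its last exon overlaps another locus, ENSG00000285589, on the same strand and WDR83 on the opposite strand, so the assignment of reads there is uncertain. That call was lost without DMSO replicate 4 or 5 or SFN replicate 4 or 5, with log2 fold changes from 0.48 to 0.54 and adjusted p-values from 0.0540 to 0.0625, and with library sizes alone (0.0637) or no low-count filter (0.0626). The 2 that fell were EEF2K, the kinase of elongation factor eEF2 (-0.88, adjusted p = 0.00522), and the release factor GSPT2 (-1.43, adjusted p = 8.37e-05). Without DMSO replicate 1 there were 7 higher and 2 lower, beside 46.1% of all genes called (22.5% higher and 23.5% lower). The mitochondrial initiation factors MTIF2 (0.13, adjusted p = 0.441) and MTIF3 (-0.15, adjusted p = 0.707) passed in neither fit.

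DMSO replicate 1 lay outside the range of the other DMSO libraries for 40 of the 46 coding members, above it for 26 and below it for 14, against the 85.0% of all genes given above. It was more than 2-fold above their mean for 9 members and more than 2-fold below for 5, and above every SFN library for 17. The members' deviations in this library went with those of 2 SFN libraries. Of the 26 members that it had above, SFN replicate 2 was the highest SFN library for 20 and SFN replicate 5 the lowest for 21. Of the 14 that it had below, SFN replicate 2 was the lowest for 8 and SFN replicate 5 the highest for 10. Over the 46 members, the deviation of DMSO replicate 1 from the mean of DMSO replicates 2 to 5 and that of SFN replicate 2 from the mean of the other SFN libraries had a Pearson r of 0.592 and a Spearman rho of 0.660. For SFN replicate 5 these were -0.558 and -0.675. The mean set against each of these 2 SFN libraries includes the other one, so their opposite signs are partly built in. With the length of the canonical transcript the deviation of DMSO replicate 1 had an r of -0.242 and a rho of -0.256. These are descriptions over genes that share the same libraries, and the part of depth, RNA quality or handling in them was not tested.

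**Figure D4:**
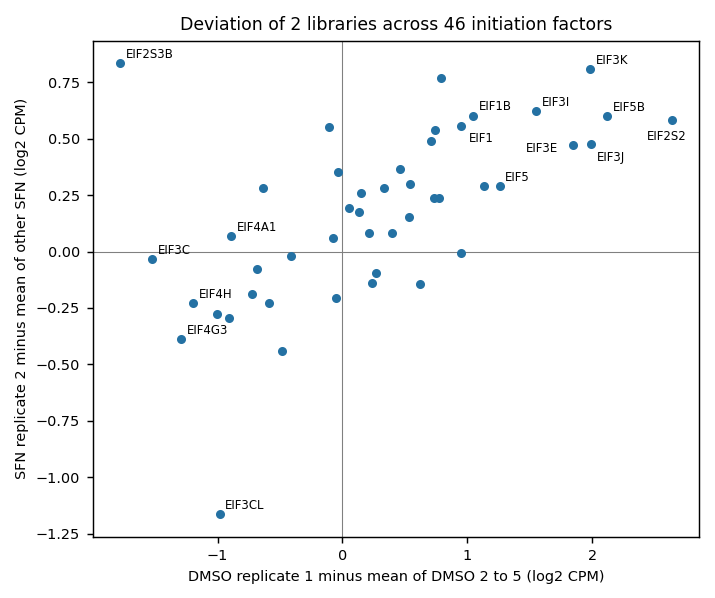
Deviation of SFN replicate 2 from the mean of the other SFN libraries (y axis, log2 CPM) against that of DMSO replicate 1 from the mean of DMSO replicates 2 to 5 (x axis, log2 CPM), with 1 point for each of the 46 coding members. Members far to the right, such as EIF2S2, EIF5B, EIF3J and EIF3K, were also above 0 on the y axis (Pearson r 0.592 over all points), and EIF2S3B and EIF3CL, with at most 31 and 89 counts, lay farthest from the rest.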

How the data were processed

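RNA of RPE-1 cells given DMSO or SFN was made into Lexogen QuantSeq libraries by the authors and aligned with the Bluebee pipeline. The submitters' processing notes name FastQC, STAR, featureCounts, edgeR and GRCh38 (hg38), and the versions, the use of strand and of molecular identifiers are not given in the sources used here. The table deposited by the authors holds unnormalized read counts for each Ensembl gene and library. 46 rows of the table had a blank symbol. No column belonged to a sample of another series. Columns were assigned by their titles.

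Counts were tested with edgeR 4.0.16 in R 4.3.3 (filterByExpr, TMM, glmQLFit and glmQLFTest, two-sided) on all 10 libraries. Benjamini-Hochberg adjustment ran over all 13378 genes tested, with a call at an adjusted p under 0.05. The SE was obtained as the size of the log2 fold change over the root of the F statistic. Alternatives were DESeq2 1.42.0, its size factors in edgeR, library sizes alone, limma-voom 3.58.1 on quantile normalized values (near the authors' fit, but without its term for repeated measures, which the methods do not define), no low-count filter, a replicate block and leaving out each library. Sample quality weights were added after seeing the data. The members, the gene lists and these tests were chosen with earlier results of these data known. Members past the filter were named, and values in each library were given for those called and for a chosen set of paralogs (EIF1, EIF4A, EIF4E, EIF4G and EIF5A). On simulated counts with 200 of 13210 genes changed, edgeR found 65% of 2-fold and 95% of 4-fold changes, and 3.03% of calls were false. Apart from those changes the simulated libraries shared the same mean for each gene, and none was set apart as DMSO replicate 1 was. Fewer genes changed there than were called in these data, and changes under 2-fold were not simulated. These rates need not hold for the members.

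Replicates were compared before averaging: the chi-square per degree of freedom between libraries of a group was 3.50 to 243, so none was counted as a duplicate. Positions come from GENCODE 44 (GRCh38) and promoters from RefSeq. Intervals and standard errors cover the spread between libraries, and counts of 30 or fewer add counting error.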

Additional observations from a re-analysis of the deposited data

Results flagged for a closer look

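In each of the 92 groups of 5 libraries (46 coding members, DMSO and SFN), the gap between the most extreme library and its neighbour was divided by the range of the group, and a library was marked when this ratio was above 0.71. Chance marks about 1 in 20 groups, or 5 here, and 30 were marked, 25 of them for DMSO replicate 1. The genes share libraries, so the marks are not independent of each other.

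DMSO replicate 1 was the highest DMSO library for 18 members. With the ratio in brackets, these were EIF1 (0.878), EIF1B (0.758), EIF1AX (0.901), EIF1AD (0.727), EIF5 (0.965), EIF5B (0.951), EIF2S2 (0.974), EIF2A (0.885), EIF2B1 (0.813), EIF2B3 (0.799), EIF2B4 (0.859), EIF3E (0.955), EIF3F (0.886), EIF3I (0.953), EIF3J (0.958), EIF3K (0.938), EIF3M (0.893) and EIF4E2 (0.868). It was the lowest for 7. These were EIF2S3 (0.743), EIF3C (0.723), EIF4B (0.886), EIF4H (0.760), EIF4G2 (0.798), EIF4G3 (0.915) and EIF4ENIF1 (0.825). The 5 other marks were for EIF2B3 in SFN (0.784, replicate 2 the highest), EIF3A in SFN (0.711, replicate 5 the highest), EIF3B in DMSO (0.900, replicate 3 the highest), EIF3F in SFN (0.813, replicate 2 the highest) and EIF4B in SFN (0.719, replicate 2 the lowest). No explanation of these libraries was tested.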

How the results depend on the processing

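Over the members and named partners that kept their sign, sample quality weights gained 22 gene calls and leaving out DMSO replicate 1 gained 17. That is more than any other setting (DESeq2 was next with 5). Genes whose sign turned are not in these counts, although EIF3J and EIF3K among them also passed without DMSO replicate 1. Beside the 3 higher and 1 lower members called, DESeq2 gave 8 higher, DESeq2's size factors 5, and sample quality weights, which gave DMSO replicate 1 a weight of 0.0568, gave 22 higher and 7 lower. Library sizes alone gave 3 lower, quantile normalization 2, and no low-count filter and the replicate block 0 each (the edgeR fit of the report had 4 at an unadjusted p under 0.05). Leaving out 1 library gave 1 to 19 higher and 1 to 4 lower. The members' median log2 fold change stayed between 0.049 and 0.22 under all 17 alternatives. Partners of initiation gave 12 higher and 7 lower with weights, and 6 to 12 higher and 0 to 5 lower without 1 library. Elongation and termination factors gave 2 higher with DESeq2's size factors, 4 with DESeq2, 0 with library sizes alone, no filter or the block, 10 with weights and 0 to 7 without 1 library. All genes gave 3874 higher and 4041 lower with weights, and 906 to 3058 higher and 1470 to 3193 lower without 1 library. Of all calls 39.5% were higher, and 27.5% with library sizes alone.

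Signs turned for the members below, and the cause was not tested. With all libraries EIF5B was at -0.36 and EIF3J at -0.31, and the others lay nearer to 0. With library sizes alone EIF2B1 was at -0.070 and EIF3B at -0.087. With quantile normalization EIF1AX was at -0.0042, EIF2B1 at -0.013, EIF3B at -0.10, EIF3CL at 0.15, EIF3K at 0.16 and EIF4G2 at -0.013. Without the filter EIF2B1 was at -0.0026 and EIF3B at -0.0089. With weights EIF5B was at 0.33, EIF2B3 at 0.058, EIF3C at -0.083, EIF3J at 0.30, EIF3K at 0.51 and EIF4E2 at 0.097. Without 1 library the ranges that crossed 0 were EIF5B from -0.52 to 0.37, EIF2B1 from -0.039 to 0.088, EIF2B3 from -0.16 to 0.11, EIF3B from -0.024 to 0.061, EIF3C from -0.076 to 0.22, EIF3CL from -0.19 to 0.12, EIF3E from -0.054 to 0.67, EIF3J from -0.45 to 0.36, EIF3K from -0.24 to 0.61, EIF4B from -0.14 to 0.0096, EIF4E2 from -0.23 to 0.088, EIF4G1 from -0.18 to 0.053 and EIF4G2 from -0.0015 to 0.17.

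Replicate numbers did not pair the libraries: the correlation of deviations for numbers 1 to 5 was 0.0394, -0.267, -0.0605, 0.0308 and 0.484. With the replicate block EIF3K was at 0.19, the calls of EIF4A2 (adjusted p = 0.0593), EIF5A (0.0544), BZW1 (0.0561) and DHPS (0.0771) were lost, EIF5 (0.0268) was gained, and the counts of all genes were 911 higher and 1530 lower.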
